A study of Danio rerio with 36 samples.

Results

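The genes described here encode connective tissue matrix proteins other than collagens, together with the enzymes that fold, process and cross-link collagen and the proteases and inhibitors that remodel matrix. They were chosen by symbol, from a list of 46 genes drawn up with earlier results of these data known. Of these, 42 were found in both count tables, which held 24860 genes in experiment 1 and 25077 in experiment 2. The symbols tnca, tncb, fbn1 and elna were not found in both and are not analysed here. Of the 42, vcana was too low to pass the filter on low counts, so 41 members were tested in each comparison.

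RNA was measured in pools of whole heads, cut in front of the swim bladder, from larvae of a mixed wild-type zebrafish line at 10 days after fertilization. Axenic larvae were kept free of microbes. Re-colonized larvae went through the same derivation and then received microbes on day 1, so they control for that procedure, and conventional larvae carried microbes throughout. There were 6 libraries of each group in experiment 1, made from total RNA after ribosomal RNA depletion. In experiment 2, where polyA RNA was selected, 4 libraries were axenic, 7 re-colonized and 7 conventional. All groups shared line, age and tissue, and the labels name no mutation or transgene. Each library is a pool, and the labels do not say whether pools of a group stem from different spawns, so the p-values reflect variation among the pools at hand.

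Connective tissue cells secrete a matrix whose fibres are mostly collagen and whose properties are set by the other proteins bound to them. Small leucine-rich proteoglycans coat collagen fibrils and limit their width. Matricellular proteins such as periostin and SPARC bind fibres and cell receptors and are abundant where tissue grows or heals. Fibronectin, versican and laminin form the matrix that cells adhere to, fibrillin and elastin form elastic fibres, and chaperones and hydroxylases prepare collagen inside the cell before lysyl oxidases cross-link it outside.

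Total counts were 11716737 to 15017645 per library in experiment 1 and 15148068 to 25760598 in experiment 2. The small structural RNAs 7SL and 7SK took 33.3% to 46.5% of the counts of experiment 1 and at most 0.00773% of those of experiment 2. The spread between pools was wider in experiment 2, with a biological coefficient of variation of 35.5%, against 16.5% in experiment 1. Values below are CPM, the counts of a gene scaled to a common library size after TMM normalization. They serve to compare libraries for the same gene, since no transcript lengths were used to compare genes. Counts that were not whole, as can arise where reads are shared between genes, were frequent for thbs1b, fn1b and fbln5 in both experiments and for fn1a, serpinh1a and thbs3a in experiment 2, which makes their values less certain.

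Matrix genes were higher in axenic heads, in both experiments and against both colonized groups, and no member was called lower. In experiment 1, 20 of 41 members were called higher and 0 lower in axenic against conventional heads, at an adjusted p below 0.05 in edgeR's quasi-likelihood test. Over all genes tested, 8.89% were called higher and 6.71% lower. Because the members were chosen with earlier results of these data known, such shares give a scale and no independent test. Against re-colonized heads, 20 of 41 were again called higher and 0 lower, where 8.67% of all genes were called higher and 8.27% lower. In experiment 2, 19 of 41 were called higher in axenic against conventional heads (3.99% of all genes higher, 2.15% lower) and 13 of 41 against re-colonized heads (3.25% higher, 0.64% lower), with 0 members called lower in either. At an unadjusted p below 0.05, 26, 27, 30 and 26 of 41 members were higher in axenic heads in these 4 comparisons, in that order. Lower at that threshold were 0 members in 3 of them and 1 against re-colonized heads of experiment 1. Of all genes, 28.8%, 29.7%, 20.5% and 14.7% passed it in either direction. DESeq2 called 0 members lower in all 4. In pools of whole heads, more cells that make matrix and more matrix RNA per cell cannot be told apart.

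The median member was 0.65 higher on the log2 scale in axenic than in conventional heads of experiment 1 and 0.53 higher than in re-colonized heads, where the median over all genes was -0.01 and 0.01. In experiment 2 the medians of the members were 0.91 and 0.87, and those of all genes 0.04 and -0.01. Fold changes were above 0 for 37 of 41 members in both comparisons of experiment 1, and for 39 and 40 of 41 in experiment 2. Without axenic library A of experiment 1, they were above 0 for 33 and 35 of 40 members, with medians of 0.455 and 0.419. Without axenic library 7 of experiment 2, they were above 0 for 36 and 33 of 41 members, with medians of 0.795 and 0.607. Each pair is given against conventional and then re-colonized heads. The 2 comparisons of an experiment share its axenic libraries, so they are not separate evidence.

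**Figure D1:**
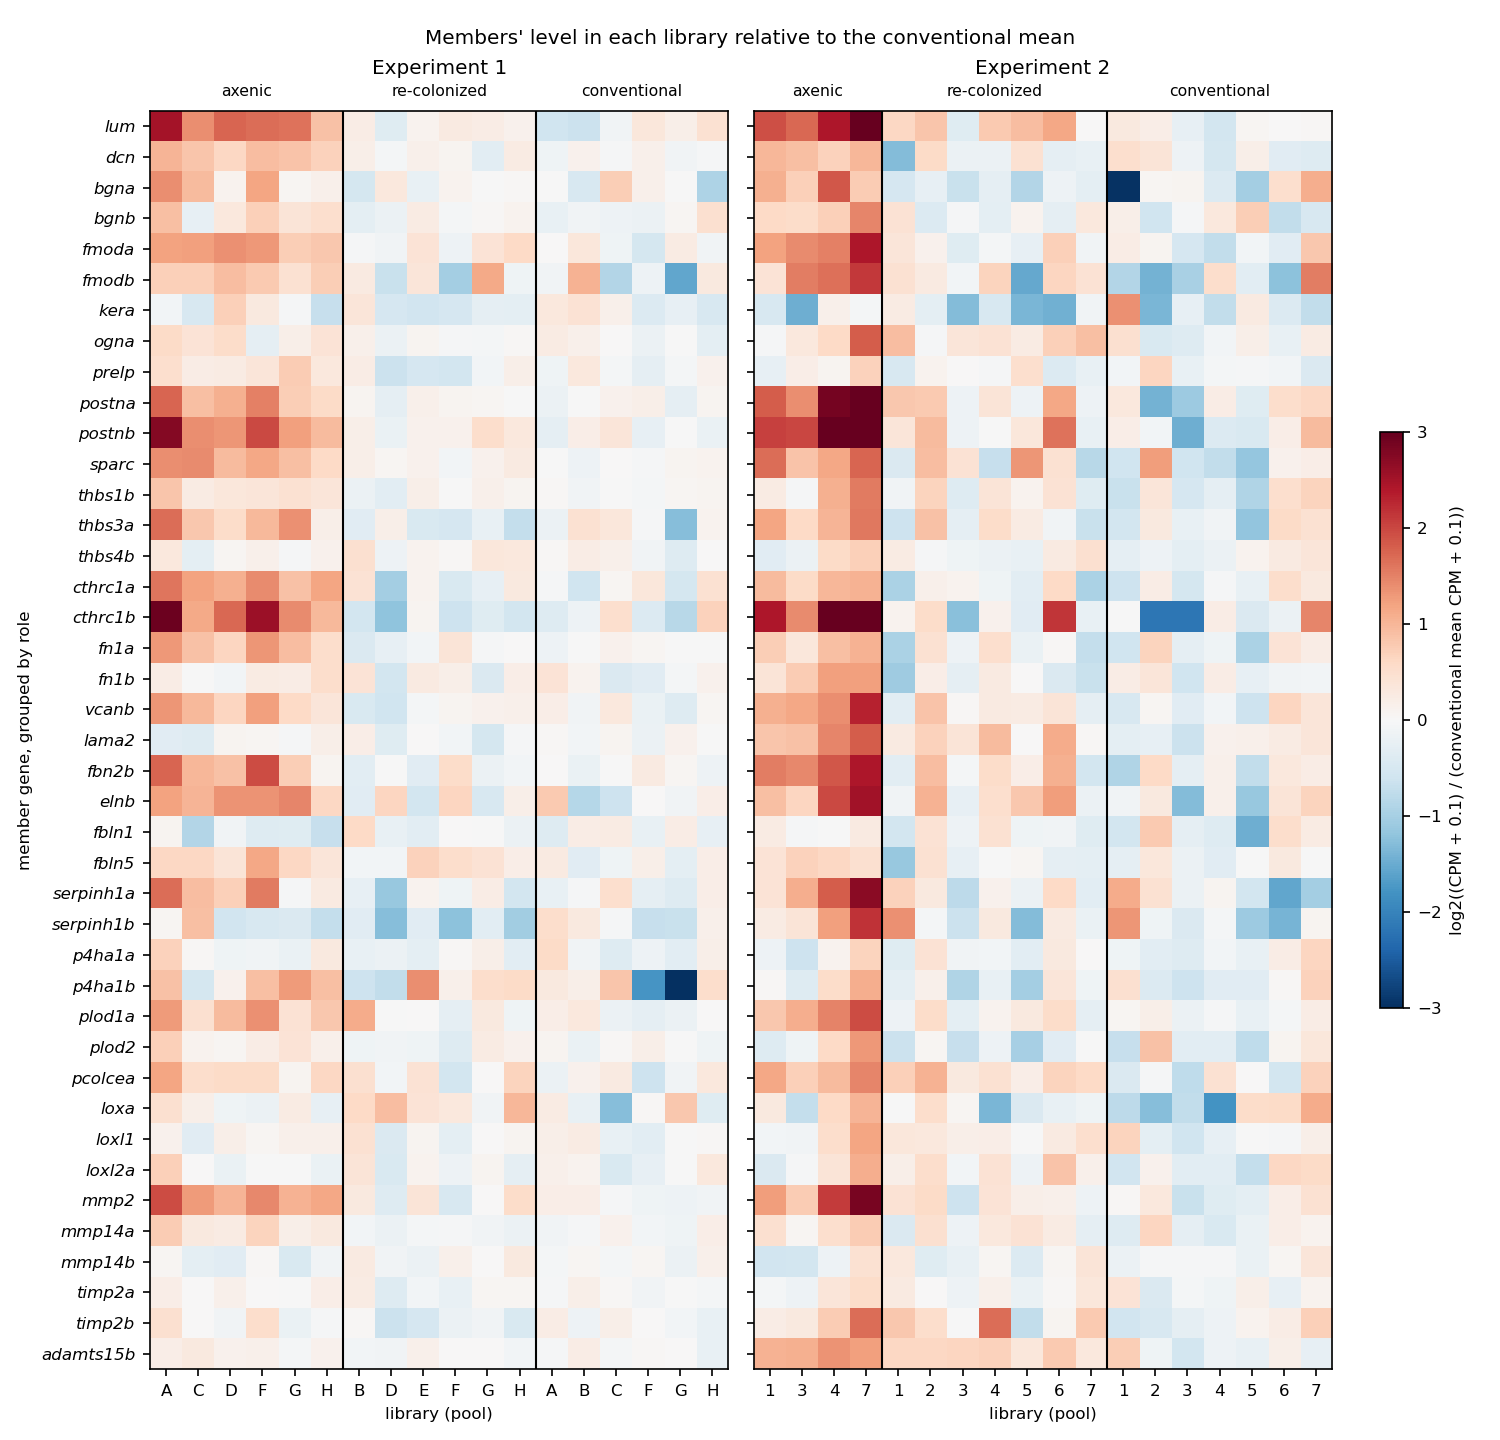
Level of the 41 tested members (rows, grouped by role) in each library (columns), as log2 of (CPM + 0.1) over the mean CPM + 0.1 of the conventional libraries of the same experiment, with colours capped at 3 in either direction. Red fills most of the axenic columns for lum, fmoda, the postn and cthrc1 genes, fbn2b and mmp2, and axenic library 7 of experiment 2 is the darkest column, being the highest axenic library for 36 of 42 members.

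A single pool weighed on the count in experiment 2. Axenic library 7 was the highest axenic library for 36 of 42 members, with a summed member level of 3522 CPM, against 1935 to 2849 CPM in the other 3 axenic libraries. Without it, 10 members were called higher against conventional heads, where 1.09% of all genes were. They were lum, fmoda, postna, postnb, vcanb, lama2, fbn2b, plod1a, mmp2 and adamts15b. Against re-colonized heads 6 were called (0.68% of all genes), namely lum, fmoda, postna, postnb, plod1a and mmp2. Leaving out re-colonized libraries 1 and 7 of experiment 2, which an earlier analysis of these data found to stand apart, gave 8 calls against re-colonized heads. The calls of dcn, cthrc1a, cthrc1b, fn1b and serpinh1a were lost there, while those of lum, fmoda, postna, postnb, vcanb, fbn2b, plod1a and mmp2 were kept. In experiment 1, axenic library A was the highest axenic library for 24 of 42 members, and without it 19 members were called against conventional heads (6.64% of all genes) and 18 against re-colonized heads (6.47%), of 40 tested.

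By role, and beside the 8.89% of all genes called higher against conventional heads of experiment 1, 3 of 9 small leucine-rich proteoglycans, 7 of 8 matricellular proteins, 2 of 4 fibronectins, versicans and laminin, and 3 of 4 elastic fibre proteins were called higher. Of the 10 enzymes of collagen folding, processing and cross-linking 3 were called, and of the 6 proteases and inhibitors 2. Against re-colonized heads (8.67% of all genes) the counts were 5, 7, 2, 2, 2 and 2. In experiment 2 they were 3, 6, 3, 2, 3 and 2 against conventional heads (3.99%) and 3, 4, 2, 1, 2 and 1 against re-colonized heads (3.25%). Differences between the roles were not tested.

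**Figure D2:**
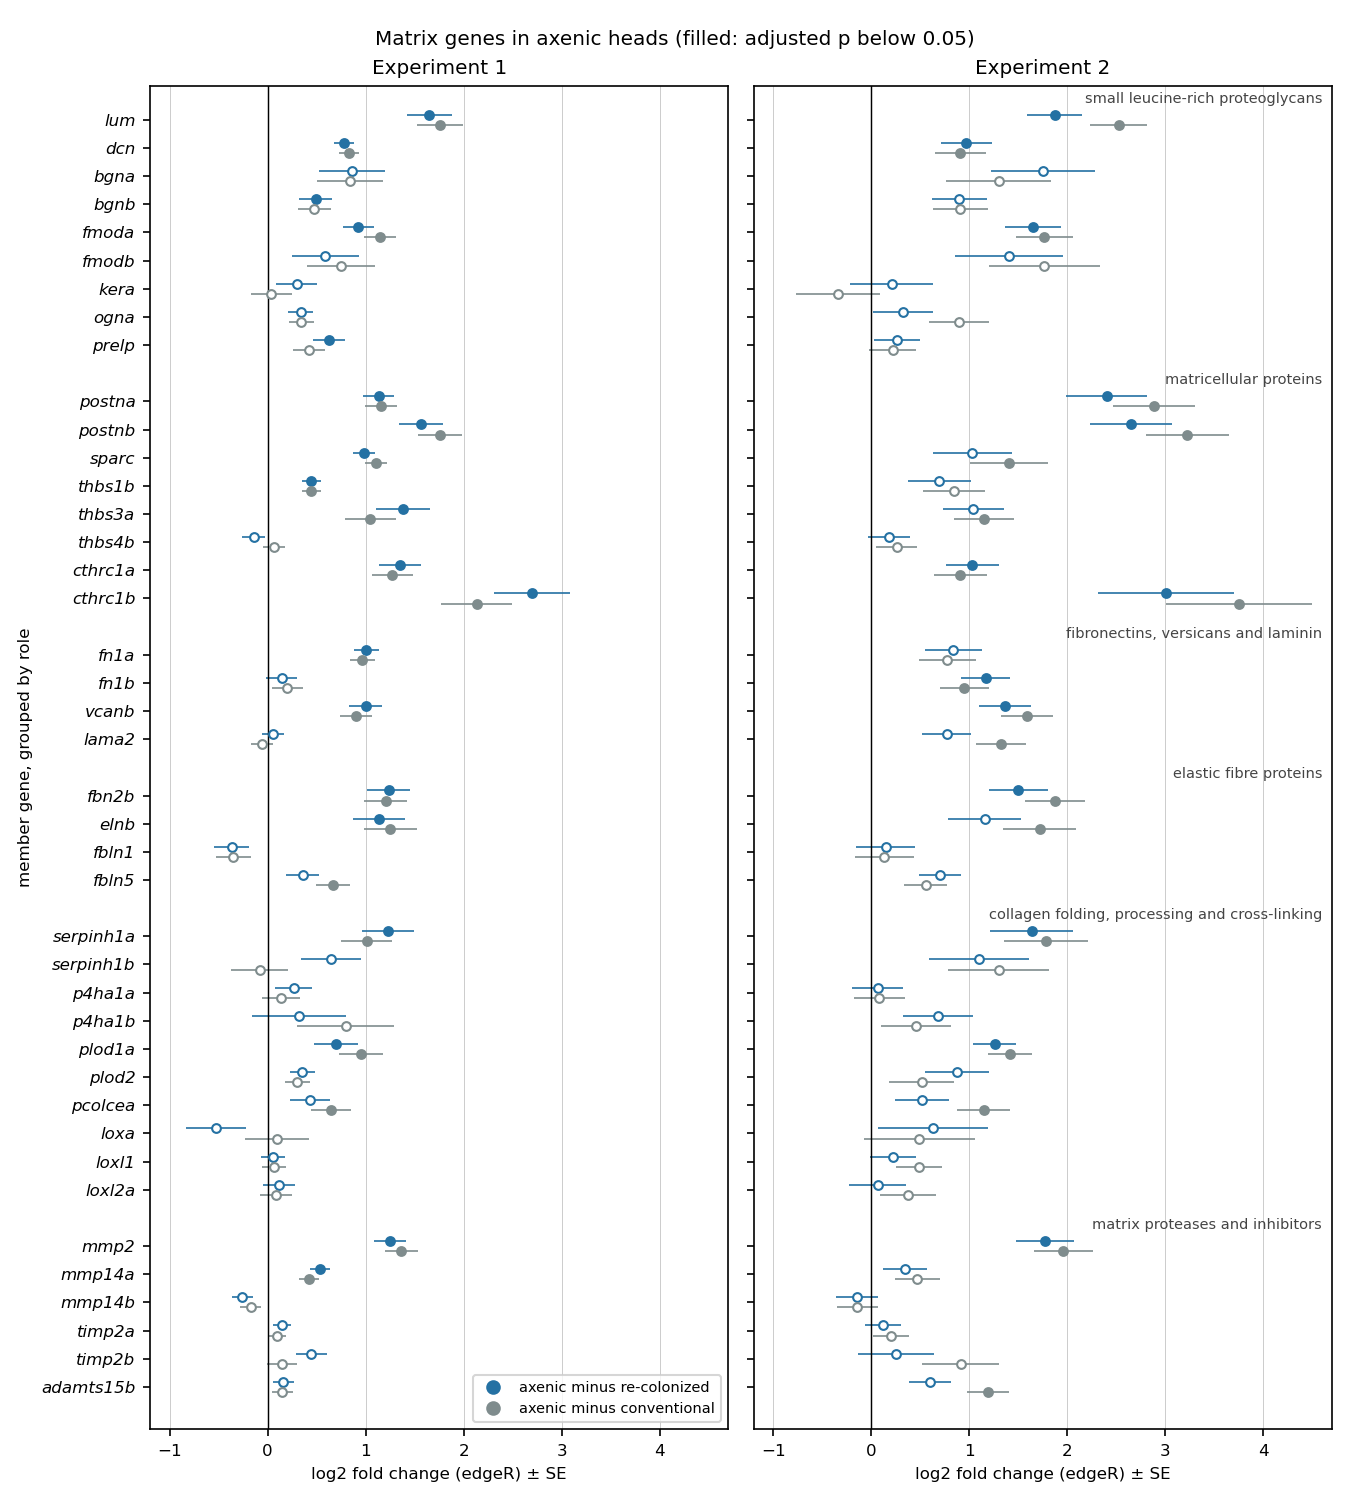
Log2 fold change ± SE of each tested member in axenic against re-colonized heads (blue) and against conventional heads (grey), in experiment 1 on the left and experiment 2 on the right, with filled points for an adjusted p below 0.05. Every filled point lies right of 0, cthrc1b lies farthest right in each panel, and p4ha1a, timp2a and thbs4b lie close to 0.

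Lumican, a proteoglycan of corneal and other collagen fibrils, showed the largest change of the small leucine-rich proteoglycans against both colonized groups of experiment 1. In experiment 1 lum had 3.77, 6.49 and 11.8 CPM (lowest, median and highest) in axenic, 1.52, 2.27 and 2.43 CPM in re-colonized and 1.25, 2.06 and 2.77 CPM in conventional heads. In experiment 2 its levels were 19.2, 16.6, 27.3 and 51.6 CPM in axenic libraries 1, 3, 4 and 7, against 3.85, 8.60 and 11.2 CPM in re-colonized and 3.39, 5.08 and 6.16 CPM in conventional heads. Every axenic library lay above every colonized library in both experiments. The log2 fold change of lum was 1.76 ± 0.23 against conventional (adjusted p = 1.03e-05) and 1.65 ± 0.23 against re-colonized heads (adjusted p = 1.87e-05) in experiment 1, and 2.52 ± 0.29 and 1.87 ± 0.28 in experiment 2 (adjusted p = 2.25e-05 and 0.000499).

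Fibromodulin, which shapes tendon collagen, has the copies fmoda and fmodb. In experiment 1 fmoda stood at 8.55, 12.1 and 13.4 CPM in axenic, 4.63, 5.93 and 7.74 CPM in re-colonized and 3.51, 4.96 and 6.53 CPM in conventional heads. In experiment 2 fmoda had 7.67, 8.79, 9.40 and 17.9 CPM in axenic libraries 1, 3, 4 and 7, 2.48, 3.08 and 5.42 CPM in re-colonized and 1.91, 3.04 and 5.73 CPM in conventional heads. All axenic values again exceeded all colonized ones, with log2 fold changes of 1.15 ± 0.16 and 0.92 ± 0.16 against conventional and re-colonized heads in experiment 1 and 1.77 ± 0.29 and 1.65 ± 0.29 in experiment 2 (adjusted p = 1.90e-05, 0.000182, 0.000648 and 0.00172). For fmodb the groups overlapped in each comparison. Its levels in experiment 1 were 1.92, 2.35 and 2.70 CPM in axenic, 0.628, 1.47 and 3.17 CPM in re-colonized and 0.405, 1.25 and 2.93 CPM in conventional heads. In experiment 2 they were 0.847, 1.96, 2.15 and 3.02 CPM in axenic libraries 1, 3, 4 and 7, 0.147, 0.858 and 1.04 CPM in re-colonized and 0.166, 0.288 and 1.97 CPM in conventional heads. The log2 fold changes of fmodb ran from 0.59 to 1.76 over the 4 comparisons and its adjusted p from 0.065 to 0.262, none of them past the threshold.

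Decorin, which binds collagen and growth factors, was called in all 4 comparisons. In experiment 1 dcn had 20.1, 23.6 and 26.7 CPM in axenic, 10.5, 14.2 and 15.6 CPM in re-colonized and 12, 12.9 and 14.6 CPM in conventional heads. In experiment 2 dcn had 164, 153, 132 and 164 CPM in axenic libraries 1, 3, 4 and 7, 33.3, 71.9 and 121 CPM in re-colonized and 56.6, 73.4 and 116 CPM in conventional heads. The axenic libraries lay above all colonized ones in both experiments. Its log2 fold changes were 0.83 ± 0.10 and 0.78 ± 0.10 against conventional and re-colonized heads in experiment 1 (adjusted p = 2.98e-06 and 5.81e-06) and 0.91 ± 0.26 and 0.97 ± 0.26 in experiment 2 (adjusted p = 0.0395 and 0.0353). In experiment 2 the call of dcn against conventional heads was lost without any 1 of 12 of the 18 libraries and with DESeq2's size factors. That against re-colonized heads was lost without any 1 of 10 libraries, with only the 2 groups fitted, and without re-colonized 1 and 7 together.

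Biglycan, a proteoglycan of bone and tendon, also has a pair of copies, bgna and bgnb. In experiment 1 bgnb had 3.63, 5.99 and 8.22 CPM in axenic, 3.52, 4.32 and 5.13 CPM in re-colonized and 3.69, 3.97 and 6.06 CPM in conventional heads. It was called against re-colonized heads of experiment 1, at 0.49 ± 0.17 on the log2 scale (adjusted p = 0.0476), and lost that call under 5 of 6 other settings. In experiment 2 bgnb had 4.98, 4.83, 5.44 and 9.18 CPM in axenic libraries 1, 3, 4 and 7, 2.44, 3.19 and 4.43 CPM in re-colonized and 1.92, 3.17 and 5.51 CPM in conventional heads. The copy bgna was low throughout. It had 0.684, 1.05 and 1.87 CPM in axenic, 0.419, 0.662 and 0.834 CPM in re-colonized and 0.299, 0.645 and 1.15 CPM in conventional heads of experiment 1. In experiment 2 it had 1.54, 1.19, 2.75 and 1.23 CPM in axenic libraries 1, 3, 4 and 7, 0.330, 0.536 and 0.607 CPM in re-colonized and 0, 0.719 and 1.56 CPM in conventional heads. The axenic libraries of experiment 2 lay above all re-colonized ones and overlapped the conventional ones. None of the 4 comparisons called bgna, its adjusted p lying between 0.0702 and 0.163.

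The other 3 proteoglycans gave a single call. The protein encoded by prelp anchors basement membranes to collagen, and this gene was called against re-colonized heads of experiment 1 at 0.63 ± 0.16 (adjusted p = 0.00957). For kera, encoding the corneal proteoglycan keratocan, the log2 fold changes were 0.04 ± 0.21 and 0.30 ± 0.21 against conventional and re-colonized heads in experiment 1 and -0.34 ± 0.43 and 0.21 ± 0.42 in experiment 2. Osteoglycin (ogna) ranged from 0.32 to 0.89 on the same scale, with adjusted p from 0.0683 to 0.695. The genes kera, lum and dcn lie side by side on the minus strand of chromosome 4 (GRCz11), kera at 16337156-16345228, lum at 16349042-16354293 and dcn at 16368762-16412085. The neighbours of this cluster thus gave log2 fold changes of 0.04 for kera, 1.76 for lum and 0.83 for dcn in axenic against conventional heads of experiment 1. On chromosome 11, fmoda (21025895-21031774) and prelp (21076872-21086255) also lie close together, both within the listed span of atp2b2, on whose strand fmoda lies.

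The matricellular proteins held the largest fold changes. Periostin, a protein of periosteum, tendon and healing connective tissue, rose in both of its copies, postna and postnb. In experiment 1 postna had 11.9, 15.9 and 27.0 CPM in axenic, 6.59, 8.42 and 8.93 CPM in re-colonized and 6.64, 8.26 and 8.98 CPM in conventional heads. Its levels in experiment 2 were 20.3, 15.1, 42.1 and 89.7 CPM in axenic libraries 1, 3, 4 and 7, 5.07, 7.51 and 12.8 CPM in re-colonized and 2.05, 6.65 and 8.84 CPM in conventional heads. No axenic library of either experiment fell within the colonized range. Fold changes of postna on the log2 scale were 1.16 ± 0.16 and 1.13 ± 0.16 against conventional and re-colonized heads in experiment 1 (adjusted p = 1.69e-05 and 2.01e-05) and 2.88 ± 0.42 and 2.40 ± 0.41 in experiment 2 (adjusted p = 0.000218 and 0.00160).

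For postnb, axenic heads of experiment 1 gave 18, 24.1 and 63.5 CPM, re-colonized heads 8.11, 10.3 and 13.5 CPM and conventional heads 7.70, 8.73 and 12.1 CPM. In experiment 2 the levels of postnb were 30.6, 29.8, 70.9 and 143 CPM in axenic libraries 1, 3, 4 and 7, 6.33, 9.29 and 23.1 CPM in re-colonized and 2.60, 6.91 and 14.2 CPM in conventional heads. The groups stood apart as for postna, and axenic libraries A and 7 were the highest of their experiments. Log2 fold changes of postnb were 1.76 ± 0.23 and 1.56 ± 0.22 against conventional and re-colonized heads in experiment 1 (adjusted p = 7.66e-06 and 2.62e-05) and 3.23 ± 0.43 and 2.65 ± 0.42 in experiment 2 (adjusted p = 8.90e-05 and 0.000746).

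Cthrc1 is a secreted protein of connective tissue, and zebrafish have cthrc1a and cthrc1b. In experiment 1 cthrc1b had 1.39, 2.17 and 5.77 CPM in axenic, 0.227, 0.420 and 0.699 CPM in re-colonized and 0.324, 0.534 and 1.12 CPM in conventional heads. In experiment 2 its levels were 2.34, 1.1, 5.37 and 9.15 CPM in axenic libraries 1, 3, 4 and 7, 0.0885, 0.387 and 1.90 CPM in re-colonized and 0, 0.303 and 1.15 CPM in conventional heads. Axenic library 3 lay within the colonized range there, while the other 3 lay above it. The fitted log2 fold changes were 2.13 ± 0.37 and 2.70 ± 0.39 against conventional and re-colonized heads in experiment 1 (adjusted p = 0.000216 and 2.85e-05) and 3.75 ± 0.74 and 3.01 ± 0.70 in experiment 2 (adjusted p = 0.00331 and 0.0154), and both calls of experiment 2 were lost without axenic library 7. These folds rest on few reads, since cthrc1b had 3 to 9 counts per re-colonized and 4 to 15 per conventional library of experiment 1, and 2 to 47 and 0 to 14 in experiment 2.

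The copy cthrc1a was called in all 4 comparisons. It had 5.06, 6.36 and 8.51 CPM in axenic, 1.29, 2.61 and 3.69 CPM in re-colonized and 1.76, 2.74 and 3.74 CPM in conventional heads of experiment 1. In experiment 2 cthrc1a had 14.9, 11.5, 15.3 and 15.8 CPM in axenic libraries 1, 3, 4 and 7, 3.90, 7.01 and 11.7 CPM in re-colonized and 4.95, 7.46 and 11.1 CPM in conventional heads. Unlike most members, the 4 axenic libraries of experiment 2 lay close together, and they stood above all conventional libraries. For cthrc1a the log2 fold changes were 1.27 ± 0.21 and 1.35 ± 0.21 against conventional and re-colonized heads in experiment 1 (adjusted p = 0.000149 and 7.74e-05) and 0.91 ± 0.27 and 1.03 ± 0.27 in experiment 2 (adjusted p = 0.0472 and 0.0308), and the call against conventional heads of experiment 2 was lost without any 1 of 16 of the 18 libraries, that against re-colonized heads without any 1 of 9.

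SPARC binds collagen and calcium and is made by bone and connective tissue cells. In experiment 1 sparc stood at 78.0, 107 and 138 CPM in axenic, 48.1, 56.4 and 61.7 CPM in re-colonized and 46.2, 51.1 and 54.8 CPM in conventional heads, with no overlap. It had the smallest adjusted p of the members against both groups, at log2 fold changes of 1.1 ± 0.11 and 0.98 ± 0.11 (adjusted p = 1.99e-07 and 9.61e-07). In experiment 2 sparc had 138, 79.0, 96.9 and 145 CPM in axenic libraries 1, 3, 4 and 7, 24.5, 58.4 and 108 CPM in re-colonized and 19.3, 28.8 and 104 CPM in conventional heads. There the groups overlapped, and sparc was called against conventional (1.40 ± 0.40, adjusted p = 0.0391) and not against re-colonized heads (1.03 ± 0.40, adjusted p = 0.198). The call of sparc there was lost without any 1 of 11 of the 18 libraries.

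Thrombospondins are large secreted glycoproteins of tendon, cartilage and wounds. In experiment 1 thbs3a had 1.97, 3.30 and 5.77 CPM in axenic, 1.01, 1.29 and 1.97 CPM in re-colonized and 0.648, 1.78 and 2.42 CPM in conventional heads, with 5 of 6 axenic libraries above each colonized group. Its levels in experiment 2 were 26.0, 17.1, 23.2 and 34.0 CPM in axenic libraries 1, 3, 4 and 7, 7.15, 10.5 and 21.0 CPM in re-colonized and 4.98, 10.5 and 17.0 CPM in conventional heads. Fold changes of thbs3a on the log2 scale were 1.05 ± 0.26 and 1.38 ± 0.27 against conventional and re-colonized heads in experiment 1 (adjusted p = 0.00736 and 0.000830) and 1.15 ± 0.31 and 1.04 ± 0.31 in experiment 2 (adjusted p = 0.0273 and 0.0604), the first of these being lost without any 1 of 8 libraries. A smaller change was called for thbs1b in experiment 1, at 0.44 ± 0.10 and 0.45 ± 0.10 (adjusted p = 0.00268 and 0.00234). It was not called in experiment 2, where axenic heads had 148 to 448, re-colonized 116 to 244 and conventional 82.2 to 243 CPM. The gene thbs4b, gave -0.14 to 0.26 over the 4 comparisons and passed in none, with adjusted p from 0.443 to 0.773.

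**Figure D3:**
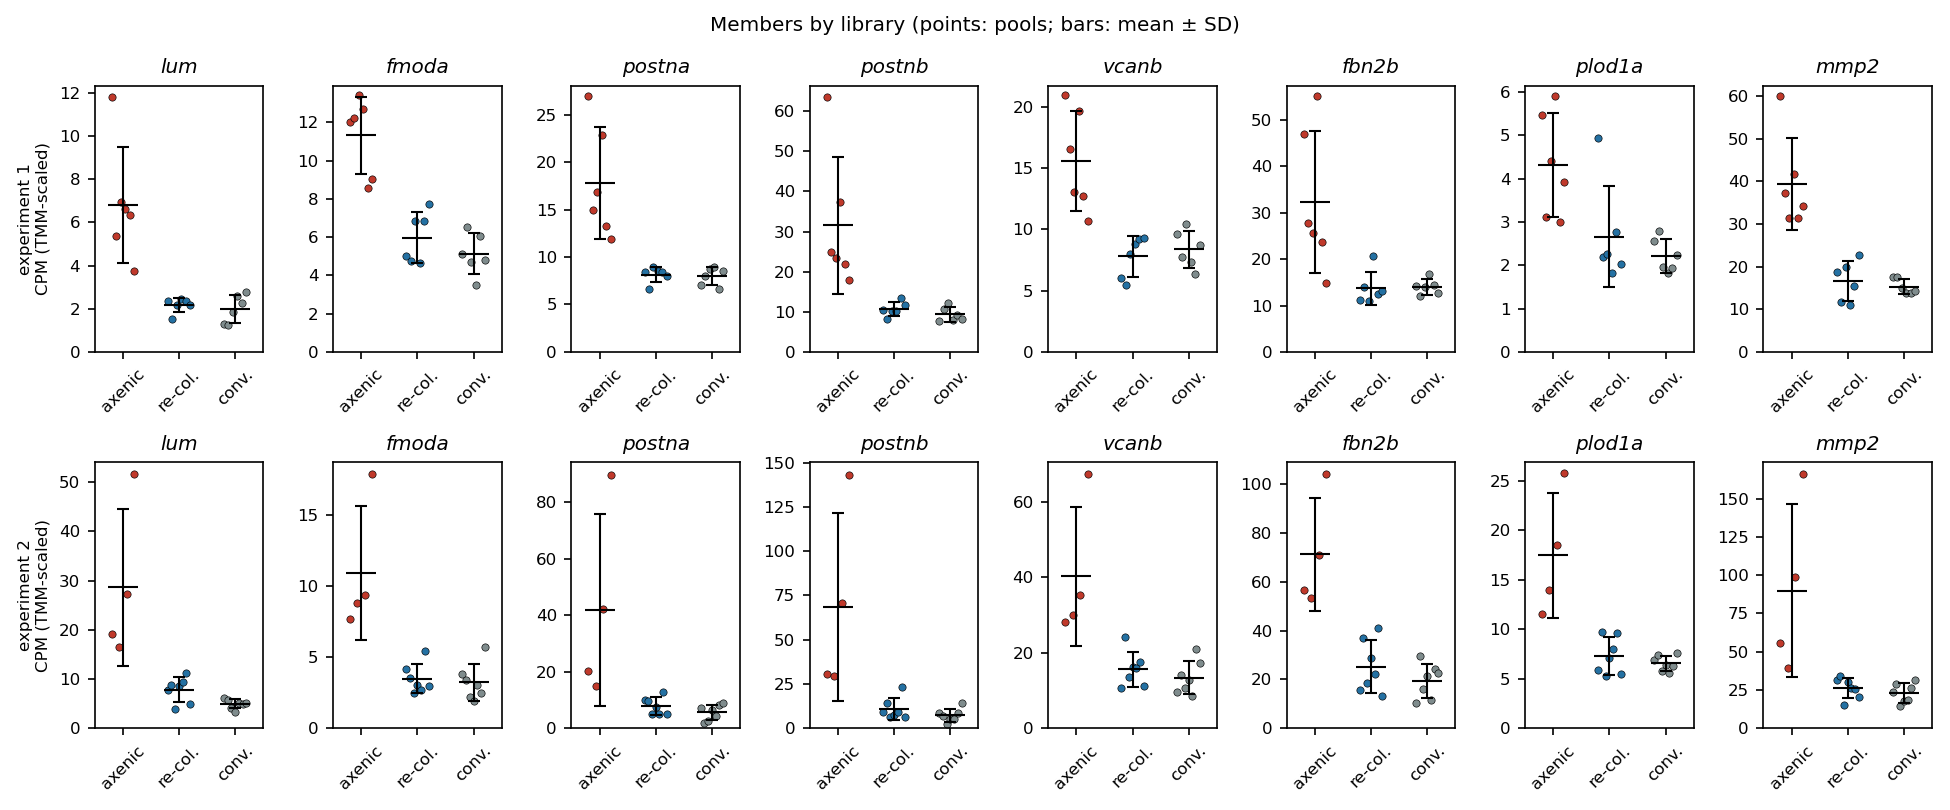
CPM of 8 members called in all 4 axenic comparisons, by library (points) in axenic, re-colonized and conventional heads of experiment 1 (top) and experiment 2 (bottom), with the mean and SD as bars and each axis starting at 0. All axenic points of lum, fmoda, postna, postnb, vcanb and mmp2 lie above all colonized points in both rows, while axenic points of fbn2b and plod1a overlap the re-colonized points in the top row.

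Versican is a proteoglycan that binds hyaluronan in loose matrix. In experiment 1 vcanb had 10.7, 14.8 and 20.9 CPM in axenic, 5.46, 8.40 and 9.25 CPM in re-colonized and 6.31, 8.22 and 10.4 CPM in conventional heads. In experiment 2 its levels were 28.2, 30.1, 35.4 and 67.5 CPM in axenic libraries 1, 3, 4 and 7, 10.8, 15.9 and 24.3 CPM in re-colonized and 8.68, 12.7 and 21.0 CPM in conventional heads. Groups did not overlap in either experiment. For vcanb the log2 fold changes were 0.90 ± 0.16 and 1.00 ± 0.17 against conventional and re-colonized heads in experiment 1 (adjusted p = 0.000413 and 0.000131) and 1.59 ± 0.27 and 1.37 ± 0.27 in experiment 2 (adjusted p = 0.000843 and 0.00444), and the last of these calls was lost without axenic library 7. The copy vcana was hardly detected, at 0.0721 to 0.696 CPM in axenic, 0 to 0.569 CPM in re-colonized and 0 to 0.486 CPM in conventional heads of experiment 1. In experiment 2 vcana had 0.149, 0.327, 0.201 and 0.398 CPM in axenic libraries 1, 3, 4 and 7, 0 to 0.528 CPM in re-colonized and 0 to 0.277 CPM in conventional heads, and it was not tested.

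Fibronectin, the adhesive glycoprotein of provisional matrix, is encoded by fn1a and fn1b. In experiment 1 fn1a had 46.3, 60.8 and 80.9 CPM in axenic, 24.0, 31.0 and 42.4 CPM in re-colonized and 28.9, 32.0 and 35.2 CPM in conventional heads. The axenic libraries lay above all others, at log2 fold changes of 0.97 ± 0.13 and 1.01 ± 0.13 against conventional and re-colonized heads (adjusted p = 1.30e-05 and 6.90e-06). In experiment 2 fn1a had 225, 169, 249 and 277 CPM in axenic libraries 1, 3, 4 and 7, 69.6, 120 and 190 CPM in re-colonized and 69.4, 122 and 212 CPM in conventional heads. The change of fn1a there was 0.78 ± 0.29 and 0.84 ± 0.29 and did not pass (adjusted p = 0.117 and 0.126).

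The calls for fn1b were the other way about. In experiment 1 fn1b had 363, 452 and 558 CPM in axenic, 265, 441 and 512 CPM in re-colonized and 286, 396 and 513 CPM in conventional heads, which overlapped, with log2 fold changes of 0.20 ± 0.16 and 0.14 ± 0.16 (adjusted p = 0.430 and 0.591). In experiment 2 its axenic libraries 1, 3, 4 and 7 had 665, 864, 1200 and 1200 CPM, above the 244, 424 and 609 CPM of re-colonized and the 334, 483 and 656 CPM of conventional heads. The fold changes of fn1b were 0.95 ± 0.25 and 1.17 ± 0.25 there (adjusted p = 0.0263 and 0.00948), and both calls were lost without axenic library 7, that against conventional heads also without axenic 4 or conventional 3, 4 or 6. Its fold changes were not shown to differ between the experiments (differences of 0.68 ± 0.31 and 0.96 ± 0.31, adjusted p = 0.4 and 0.4). Counts of fn1b were not whole in 88.9% of the libraries of either experiment, and its values are less certain. Where the fractions come from was not tested.

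Laminin alpha 2, a chain of the basement membrane around muscle fibres, was called in experiment 2 against conventional heads. In experiment 1 lama2 had 16.5, 21.7 and 24.3 CPM in axenic, 15, 20.7 and 24.6 CPM in re-colonized and 19.1, 21.7 and 23.6 CPM in conventional heads, the 3 groups overlapping throughout. In experiment 2 it had 10.4, 10.8, 16.1 and 20.8 CPM in axenic libraries 1, 3, 4 and 7, 5.80, 7.61 and 12.7 CPM in re-colonized and 3.69, 6.35 and 7.53 CPM in conventional heads. Fold changes of lama2 on the log2 scale were -0.06 ± 0.11 and 0.05 ± 0.12 against conventional and re-colonized heads in experiment 1, and 1.33 ± 0.25 (adjusted p = 0.00240) and 0.77 ± 0.25 (adjusted p = 0.102) in experiment 2.

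Fibrillin 2, the microfibril protein encoded by fbn2b, and elastin rose among the elastic fibre genes. In experiment 1 fbn2b had 14.8, 26.8 and 55.1 CPM in axenic, 11, 12.8 and 20.6 CPM in re-colonized and 12.1, 14.1 and 16.8 CPM in conventional heads, so that the ranges overlapped. In experiment 2 they did not, with 56.7, 53.3, 70.8 and 104 CPM in axenic libraries 1, 3, 4 and 7, 13.3, 22.3 and 41.1 CPM in re-colonized and 10.3, 21.5 and 29.5 CPM in conventional heads. For fbn2b the log2 fold changes were 1.21 ± 0.22 and 1.23 ± 0.22 against conventional and re-colonized heads in experiment 1 (adjusted p = 0.000403 and 0.000295) and 1.87 ± 0.30 and 1.5 ± 0.30 in experiment 2 (adjusted p = 0.000596 and 0.00568), the call against re-colonized heads of experiment 2 being lost without axenic library 7.

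The elastin gene elnb had 2.21, 3.57 and 4.11 CPM in axenic, 0.932, 1.34 and 2.28 CPM in re-colonized and 0.733, 1.36 and 2.49 CPM in conventional heads of experiment 1. In experiment 2 elnb had 31.9, 26.5, 67.0 and 97.1 CPM in axenic libraries 1, 3, 4 and 7, 14.4, 24.1 and 40.5 CPM in re-colonized and 6.81, 18.9 and 26.9 CPM in conventional heads. Of the axenic libraries, 1 in experiment 1 and 2 in experiment 2 fell within the colonized range. The log2 fold changes were 1.25 ± 0.27 and 1.14 ± 0.27 against conventional and re-colonized heads in experiment 1 (adjusted p = 0.00194 and 0.00394) and 1.72 ± 0.38 and 1.16 ± 0.38 in experiment 2 (adjusted p = 0.00725 and 0.0981), the first of these being lost without axenic library 7. Fibulin 5, which helps elastin assemble, was called against conventional heads of experiment 1 (fbln5, 0.67 ± 0.17, adjusted p = 0.00963). It was not called against re-colonized heads there (0.36 ± 0.17, adjusted p = 0.165), nor in experiment 2. The axenic libraries of experiment 2, at 30.8 to 37.3 CPM, lay above the conventional ones (18.1 to 29.4 CPM). They overlapped the re-colonized ones (10.4 to 31.7 CPM). The related fbln1 gave -0.35 ± 0.18 and -0.37 ± 0.18 against conventional and re-colonized heads in experiment 1 and 0.13 ± 0.30 and 0.15 ± 0.30 in experiment 2, and passed in none.

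Among the genes of collagen handling, the calls fell on serpinh1a, plod1a and pcolcea. Serpinh1, the collagen chaperone Hsp47, has the copies serpinh1a and serpinh1b. In experiment 1 serpinh1a had 3.01, 5.57 and 10.1 CPM in axenic, 1.36, 2.71 and 3.66 CPM in re-colonized and 2.35, 2.83 and 4.43 CPM in conventional heads. Its levels in experiment 2 were 3.24, 5.28, 8.73 and 16.3 CPM in axenic libraries 1, 3, 4 and 7, 1.37, 2.68 and 3.98 CPM in re-colonized and 0.757, 2.13 and 5.36 CPM in conventional heads. Part of the axenic libraries lay within the colonized range in each experiment. Log2 fold changes of serpinh1a were 1.01 ± 0.26 and 1.23 ± 0.26 against conventional and re-colonized heads in experiment 1 (adjusted p = 0.00849 and 0.00186) and 1.79 ± 0.43 and 1.64 ± 0.42 in experiment 2 (adjusted p = 0.0135 and 0.0284), and both calls of experiment 2 were lost without axenic library 7, that against re-colonized heads also without any 1 of 5 other libraries. With the replicate block the call of serpinh1a against re-colonized heads of experiment 2 was lost too (1.63, adjusted p = 0.0672).

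No comparison called serpinh1b. It had 1.39, 1.69 and 4.47 CPM in axenic, 0.909, 1.47 and 1.87 CPM in re-colonized and 1.42, 2.46 and 3.45 CPM in conventional heads of experiment 1, and 1.49, 1.64, 3.02 and 5.88 CPM in axenic libraries 1, 3, 4 and 7, 0.441, 1.17 and 3.34 CPM in re-colonized and 0.404, 1.11 and 3.23 CPM in conventional heads of experiment 2. The groups of serpinh1b overlapped in each comparison, with log2 fold changes from -0.08 to 1.30 and adjusted p from 0.145 to 0.889.

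Lysyl hydroxylase 1, encoded by plod1a, hydroxylates the collagen lysines that later carry sugars and cross-links. In experiment 1 plod1a had 3.01, 4.17 and 5.92 CPM in axenic, 1.81, 2.22 and 4.94 CPM in re-colonized and 1.82, 2.10 and 2.79 CPM in conventional heads. In experiment 2 its levels were 11.5, 14, 18.5 and 25.8 CPM in axenic libraries 1, 3, 4 and 7, 5.31, 7.06 and 9.70 CPM in re-colonized and 5.60, 6.35 and 7.62 CPM in conventional heads. The axenic libraries stood above all colonized ones in experiment 2, while re-colonized library B fell among them in experiment 1. The log2 fold changes of plod1a were 0.95 ± 0.23 and 0.70 ± 0.22 against conventional and re-colonized heads in experiment 1 (adjusted p = 0.00502 and 0.0331) and 1.42 ± 0.22 and 1.26 ± 0.22 in experiment 2 (adjusted p = 0.000397 and 0.00180). The call against re-colonized heads of experiment 1 was lost without any 1 of 7 of the 18 libraries.

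The procollagen C-proteinase enhancer pcolcea was called against conventional heads, at 0.65 ± 0.21 in experiment 1 (adjusted p = 0.0331) and 1.15 ± 0.27 in experiment 2 (adjusted p = 0.0134), lost without axenic A or conventional A, F or G in experiment 1 and without axenic 7 in experiment 2. Against re-colonized heads its values were 0.43 ± 0.20 and 0.52 ± 0.27, which did not pass. The remaining 7 genes of collagen handling were called in no comparison. They are serpinh1b, the prolyl 4-hydroxylase subunits p4ha1a and p4ha1b, the lysyl hydroxylase plod2 and the lysyl oxidases loxa, loxl1 and loxl2a. For the lysyl oxidases the log2 fold changes over the 4 comparisons ran from -0.53 to 0.63 for loxa, from 0.06 to 0.49 for loxl1 and from 0.07 to 0.38 for loxl2a.

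Of the proteases, the gelatinase mmp2 changed most. In experiment 1 mmp2 had 31.3, 35.7 and 59.9 CPM in axenic, 10.9, 17.1 and 22.6 CPM in re-colonized and 13.7, 14.5 and 17.5 CPM in conventional heads. In experiment 2 it had 55.5, 39.3, 98.7 and 166 CPM in axenic libraries 1, 3, 4 and 7, 15, 26.3 and 34.2 CPM in re-colonized and 14.6, 23.6 and 31.6 CPM in conventional heads. Each axenic library was above each colonized library. For mmp2 the log2 fold changes were 1.36 ± 0.17 and 1.25 ± 0.17 against conventional and re-colonized heads in experiment 1 (adjusted p = 3.51e-06 and 9.30e-06) and 1.96 ± 0.30 and 1.78 ± 0.30 in experiment 2 (adjusted p = 0.000322 and 0.00129).

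The membrane protease Mmp14 activates the Mmp2 precursor together with the inhibitor Timp2. In experiment 1 mmp14a had 17.1, 18.6 and 25.7 CPM in axenic, 13.4, 14.2 and 14.8 CPM in re-colonized and 13.9, 14.7 and 17.4 CPM in conventional heads, at log2 fold changes of 0.42 ± 0.10 and 0.53 ± 0.10 against conventional and re-colonized heads (adjusted p = 0.00571 and 0.000748). Its copy mmp14b had 11.3, 13.6 and 16.3 CPM in axenic, 13.9, 16.5 and 19.1 CPM in re-colonized and 13.8, 15.6 and 17.3 CPM in conventional heads, at -0.18 ± 0.11 and -0.26 ± 0.11 (adjusted p = 0.298 and 0.103). The axenic libraries lay above all re-colonized ones for mmp14a, and none of them lay above the colonized range for mmp14b. In experiment 2 mmp14a had 29.0, 21.3, 29.1 and 34.8 CPM in axenic libraries 1, 3, 4 and 7, 15.2, 24.4 and 29.0 CPM in re-colonized and 15, 17.8 and 32.5 CPM in conventional heads. There mmp14b had 16.2, 16.4, 21.7 and 33.2 CPM in axenic libraries 1, 3, 4 and 7, 18.1, 25.0 and 31.7 CPM in re-colonized and 21.0, 23.5 and 30.9 CPM in conventional heads. Neither copy was called in experiment 2, at 0.47 ± 0.23 and 0.34 ± 0.23 for mmp14a and -0.14 ± 0.21 and -0.15 ± 0.21 for mmp14b against conventional and re-colonized heads. The inhibitor genes timp2a and timp2b were not called in any comparison, with log2 fold changes from 0.10 to 0.20 and from 0.15 to 0.91.

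Adamts15 is a secreted protease that cuts versican and related proteoglycans. In experiment 1 adamts15b had 6.02, 6.93 and 7.71 CPM in axenic, 5.83, 6.10 and 6.99 CPM in re-colonized and 5.38, 6.21 and 7.33 CPM in conventional heads. In experiment 2 it had 8.17, 8.30, 10.1 and 9.38 CPM in axenic libraries 1, 3, 4 and 7, 4.94, 6.12 and 6.80 CPM in re-colonized and 2.65, 3.51 and 6.63 CPM in conventional heads. The groups overlapped in experiment 1, and in experiment 2 the axenic libraries stood above both colonized groups. The log2 fold changes of adamts15b were 0.15 ± 0.11 and 0.16 ± 0.11 in experiment 1 (adjusted p = 0.378 and 0.335) and 1.19 ± 0.21 (adjusted p = 0.00146) and 0.60 ± 0.21 (adjusted p = 0.142) in experiment 2, against conventional and re-colonized heads.

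Duplicated copies did not always change alike, which was tested for 10 pairs with both copies in the tables. The log2 ratio of the counts of the a copy to the b copy, with 0.5 added, was compared between groups by a two-sided exact permutation test, which was chosen after the data were seen. The ratio needs no scaling between libraries. In experiment 1, mmp14a to mmp14b averaged 0.55 ± 0.10 in axenic, -0.22 ± 0.21 in re-colonized and -0.04 ± 0.12 in conventional heads (SD, n = 6 each). All 6 axenic ratios were above all colonized ones, at exact permutation p = 0.00216 in both comparisons, the smallest that 6 against 6 libraries can give, and adjusted p = 0.0216 over the 20 ratio tests of the experiment. For fn1a to fn1b the ratio was higher by 0.72 in axenic than in conventional and by 0.82 than in re-colonized heads (exact permutation p = 0.0152 and 0.0108, adjusted p = 0.0494 and 0.0432), and 5 of 6 axenic libraries lay above each group. Counts of fn1b were not whole in 88.9% of the libraries, which makes this ratio less certain.

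The ratio of postna to postnb was lower in axenic heads of experiment 1, averaging -0.74 ± 0.26 in axenic, -0.38 ± 0.19 in re-colonized and -0.21 ± 0.29 in conventional heads (SD, n = 6 each). Its differences were -0.53 against conventional and -0.36 against re-colonized heads (exact permutation p = 0.00433 and 0.0173, adjusted p = 0.0289 and 0.0494). For cthrc1a to cthrc1b the ratio differed by -1.08 from re-colonized (exact permutation p = 0.0108, adjusted p = 0.0432) and by -0.69 from conventional heads (exact permutation p = 0.0779, adjusted p = 0.173). Differences for serpinh1a to serpinh1b, 1.04 and 0.58 against conventional and re-colonized heads, did not pass (exact permutation p = 0.026 and 0.132, adjusted p = 0.065 and 0.24). No pair passed after adjustment in experiment 2, where the smallest p that 4 against 7 libraries allow is 0.00303 and the lowest adjusted p was 0.121. The difference for mmp14a to mmp14b was 0.69 against conventional and 0.54 against re-colonized heads there (exact permutation p = 0.0152 and 0.164). That for postna to postnb was -0.36 and -0.34 (exact permutation p = 0.352 and 0.13). For cthrc1a to cthrc1b it was -3.1 and -1.95 (exact permutation p = 0.0242 in both). The size of these differences is uncertain, since cthrc1b had 0 to 14 counts per conventional and 2 to 47 per re-colonized library there. At so few counts the added 0.5 weighs on the ratio. The sign was reversed from experiment 1 for fn1a to fn1b, at -0.09 and -0.29 (exact permutation p = 0.739 and 0.127). The smallest unadjusted p of experiment 2 was that of p4ha1a to p4ha1b against re-colonized heads (-0.635, exact permutation p = 0.0121). All 4 axenic ratios lay below all re-colonized ones for that pair. Against conventional heads its difference was -0.37 (exact permutation p = 0.0606).

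**Figure D4:**
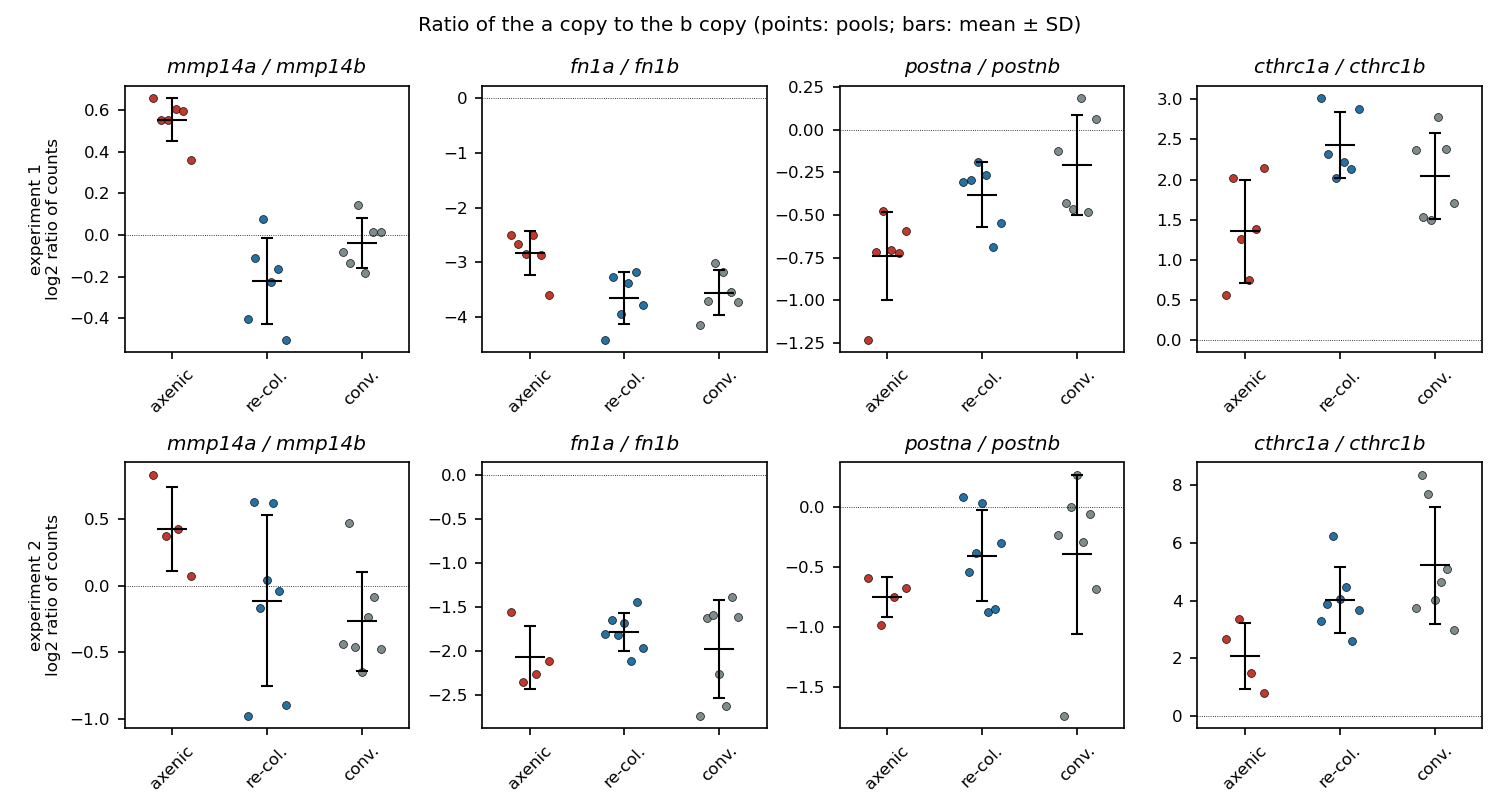
Log2 ratio of the counts of the a copy to the b copy, with 0.5 added to each, in every library (points, with mean and SD bars) of axenic, re-colonized and conventional heads for 4 pairs, in experiment 1 (top) and experiment 2 (bottom). The mmp14 ratio of all 6 axenic libraries of experiment 1 lies above that of every colonized library, and in the bottom row the axenic points overlap the others.

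Microbes given on day 1 left no detected difference in these genes from conventional heads. In re-colonized against conventional heads of experiment 1, edgeR called 0 of 41 members higher and 0 lower, and 0.0101% of all genes higher and 0.00507% lower. At an unadjusted p below 0.05, 0 members were higher and 1 lower, where 4.79% of all genes passed in either direction, and DESeq2 called 0 members. In experiment 2, 0 of 41 members were called in either direction, where 0% of all genes were called higher and 0% lower. There 5 of 41 members were higher and 0 lower at an unadjusted p below 0.05, where 13.6% of all genes passed in either direction. DESeq2 called 0 members there. The median member differed by -0.0027 on the log2 scale in experiment 1 and by 0.15 in experiment 2. For lum, re-colonized minus conventional heads gave 0.11 ± 0.26 in experiment 1 and 0.65 ± 0.25 in experiment 2 (adjusted p = 0.3), and the smallest adjusted p of a member in experiment 2 was 0.271, for adamts15b (0.60 ± 0.19).

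The experiments called overlapping sets of members. Of the 20 members called against conventional heads in experiment 1 and the 19 in experiment 2, 16 were shared, which is 80% and 84.2% of each set. For all genes tested in both experiments, 482 calls were shared, or 29.1% and 63.3% of the calls of each. The members were chosen with earlier results of these data known, so these shares are no independent test. Without axenic library 7, experiment 2 called 10 members against conventional heads (1.09% of all genes). Of these, lama2 and adamts15b were not called in experiment 1. Against re-colonized heads 12 were shared, 60% of the 20 of experiment 1 and 92.3% of the 13 of experiment 2, with 25.9% and 66.1% for all genes. Members called in all 4 axenic comparisons numbered 12, namely lum, dcn, fmoda, postna, postnb, cthrc1a, cthrc1b, vcanb, fbn2b, serpinh1a, plod1a and mmp2. Without axenic library 7 the re-colonized comparison of experiment 2 kept 6 of these, lum, fmoda, postna, postnb, plod1a and mmp2. In all, 25 were called in at least 1 comparison, and 16 in none. The shares of all genes called in all 4 comparisons, in at least 1 or in none were not computed, so these counts have no background beside them.

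Fold changes were larger in experiment 2 for 34 of 41 members against conventional heads and for 30 of 41 against re-colonized heads. Over all genes tested in both experiments these were 10137 and 9343 of 18768. The counts were not computed without axenic library 7, the highest axenic library of experiment 2 for 36 of 42 members. Without it the members' medians in experiment 2 were 0.795 and 0.607, against 0.65 and 0.53 in experiment 1 with all libraries. Tested as an interaction over the 36 libraries, the axenic minus conventional change was called larger in experiment 2 for 2 of 41 members (0.033% of all genes) and smaller for 0 (0.066%). These were lama2, by 1.32 ± 0.27 (adjusted p = 0.0328), and adamts15b, by 0.99 ± 0.22 (adjusted p = 0.0495). The call for adamts15b was lost under 2 of 4 other settings and without any 1 of 29 of the 36 libraries. The count fell to 0 without axenic A, C, G or H or conventional A, C or F of experiment 1, or without axenic 4 or 7 of experiment 2. DESeq2 called 3 larger and 0 smaller. The share of all genes that DESeq2 called is not given here, so its count has no background beside it. For the axenic minus re-colonized change 0 of 41 differed in either direction (0% and 0% of all genes), and DESeq2 called 0. At an unadjusted p below 0.05, 5 members were larger and 0 smaller, where 7.31% of all genes passed in either direction. The largest difference against conventional heads, 1.65 ± 0.45 for postna, did not pass (adjusted p = 0.130), nor did those of cthrc1b (1.56 ± 0.84, adjusted p = 0.506) and postnb (1.39 ± 0.50, adjusted p = 0.264). The experiments differ in how RNA was extracted and selected and in their pools, which cannot be told apart here.

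Of 48 other matrix proteins tested in experiment 1, 23 were called higher and 1 lower against conventional heads and 27 higher and 1 lower against re-colonized heads, and of 50 in experiment 2, 19 and 15 were called higher and 0 lower. The matrilin matn4 gave a log2 fold change of 1.80 ± 0.16 against both groups in experiment 1, and the fibril-binding proteoglycan aspn gave 1.38 ± 0.22 and 1.64 ± 0.22 against conventional and re-colonized heads. Other collagen-processing genes were called higher in 8, 8, 7 and 8 of 24 and lower in 0, in the order of axenic against conventional and re-colonized heads of experiment 1, then of experiment 2. Among them pcolceb, a second C-proteinase enhancer, gave 1.26 ± 0.17 and 1.12 ± 0.17 in experiment 1. Beside the counts of both lists, 8.89% of all genes were called higher and 6.71% lower against conventional heads of experiment 1. Against re-colonized heads the shares were 8.67% and 8.27%. In experiment 2 they were 3.99% and 2.15%, then 3.25% and 0.64%.

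Other matrix proteases and inhibitors were called in both directions in experiment 1, with 1 of 26 higher and 2 lower against conventional heads and 2 higher and 2 lower against re-colonized heads. The 2 lower were the gelatinase mmp9 (-1.56 ± 0.22 and -1.43 ± 0.22) and the collagenase mmp13a (-1.1 ± 0.21 and -1.24 ± 0.21), against conventional and re-colonized heads. In experiment 2, 5 and 3 of 27 were called higher and 0 lower. For this list and the next, the shares of all genes were 8.89% higher and 6.71% lower against conventional heads of experiment 1. Against re-colonized heads they were 8.67% and 8.27%. The shares in experiment 2 were 3.99% and 2.15%, then 3.25% and 0.64%. In the TGF-beta pathway, a signal that drives matrix genes in many tissues, 0 of 16 genes were called higher and 3 lower against conventional heads of experiment 1, and 1 higher and 2 lower against re-colonized heads. The receptor gene tgfbr2a (-0.73 ± 0.18 and -0.93 ± 0.18) and smad4a (-0.44 ± 0.11 and -0.53 ± 0.11) were the leading ones. In experiment 2 that list had 1 higher and 1 lower against conventional heads and 0 called against re-colonized heads.

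Some lists of markers, of the cells that make matrix and of other cells, held genes called higher in axenic heads. Others did not, or held genes called lower. Beside the counts below, 8.89% of all genes were called higher and 6.71% lower against conventional heads of experiment 1. Against re-colonized heads the shares were 8.67% and 8.27%. Those of experiment 2 were 3.99% and 2.15%, then 3.25% and 0.64%. Of 12 fibroblast and mesenchyme markers, 2 were called higher and 0 lower in both comparisons of experiment 1, with summed levels of 106 to 131 CPM in axenic, 96.5 to 107 CPM in re-colonized and 89.9 to 110 CPM in conventional heads. Their sums in experiment 2 were 152 to 194 CPM in axenic, 113 to 182 CPM in re-colonized and 114 to 173 CPM in conventional heads. There, 2 of 12 were called higher against conventional and 0 against re-colonized heads, with 0 lower. Tendon markers summed to 8.44 to 16.4 CPM in axenic, 4.17 to 7.07 CPM in re-colonized and 3.8 to 8.65 CPM in conventional heads of experiment 1. Cartilage markers summed to 429 to 634 CPM, 260 to 382 CPM and 288 to 393 CPM in these groups, and osteoblast markers to 43.7 to 55.7, 35.1 to 45.5 and 35.5 to 46.3 CPM. In experiment 2 the cartilage sums overlapped, at 515 to 1260, 307 to 805 and 344 to 816 CPM in the same order. Tendon sums were 20 to 50, 9.62 to 16.9 and 10.6 to 16.8 CPM there, and osteoblast sums 53.5 to 75.9, 29.9 to 48.2 and 35.4 to 47.1 CPM. Against conventional and re-colonized heads of experiment 1, 4 and 5 of 8 cartilage and 2 and 2 of 7 osteoblast markers were called higher. In experiment 2, 2 and 2 of 9 and 1 and 2 of 7 were. Of the tendon markers 1 was called higher in each comparison, of 2 tested in experiment 1 and 3 in experiment 2. Of the genes of these lists that were in the count tables, none was at 0 in every library. The count table of experiment 1 held 7 of the 8 listed osteoblast markers.

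Lists for other cells, liver among them, gave calls in some comparisons and not in others. Beside them, 8.89% and 8.67% of all genes were called higher against conventional and re-colonized heads of experiment 1. For experiment 2 the shares were 3.99% and 3.25%. Skeletal muscle markers summed to 4010 to 5060 CPM in axenic, 2860 to 4130 CPM in re-colonized and 2490 to 3280 CPM in conventional heads of experiment 1, with 13 of 14 called higher against conventional and 8 of 14 against re-colonized heads. In experiment 2 the muscle sums overlapped, at 8840 to 13900, 2090 to 15600 and 6970 to 21100 CPM in the same order of groups, with 1 and 0 of 14 called. Photoreceptor markers were called higher in 7 and 6 of 7 in experiment 1, with sums of 1530 to 1900, 715 to 1300 and 842 to 1130 CPM, and in 0 and 1 of 7 in experiment 2, against conventional and re-colonized heads. Liver markers were called higher in 3 and 4 of 6 in experiment 1 and in 2 and 3 of 6 in experiment 2. Whether the pools held liver tissue was not tested.

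Epidermis markers summed to 1680 to 2820 CPM in axenic, 875 to 1390 CPM in re-colonized and 786 to 1140 CPM in conventional heads of experiment 1, and to 8840 to 17700, 2930 to 6840 and 4730 to 6740 CPM in experiment 2. Of 6 epidermis markers, 3 were called higher against each group of experiment 1, with 1 lower against re-colonized heads, and 2 higher against each group of experiment 2. For this and the next lists, the shares of all genes were 8.89% higher and 6.71% lower against conventional heads of experiment 1. Against re-colonized heads they were 8.67% and 8.27%. The shares in experiment 2 were 3.99% and 2.15%, then 3.25% and 0.64%. Cell division markers, 7 of 9 called higher in all 4 comparisons, summed to 29.3 to 149, 23.1 to 39.0 and 22.9 to 37.4 CPM in experiment 1 and to 256 to 498, 40.4 to 156 and 52.3 to 135 CPM in experiment 2, in the same order of groups. Macrophage markers were at 19.8 to 26.7 CPM in axenic, 46.5 to 80.6 CPM in re-colonized and 34.9 to 61.0 CPM in conventional heads of experiment 1, with 5 and 6 of 7 called lower against conventional and re-colonized heads, and 2 of 7 in each comparison of experiment 2. Of 5 endothelium markers edgeR called 0 in all 4 comparisons, with sums of 52.7 to 67.4 CPM in axenic, 48.8 to 58.9 CPM in re-colonized and 50.9 to 65.1 CPM in conventional heads of experiment 1. Smooth muscle markers were called higher in 2 of 4 in each comparison of experiment 1 and 0 in experiment 2, and neuron markers in 3 and 5 of 9 and then 0 of 10. Of 4 neutrophil markers, 1 was higher and 2 lower in each comparison of experiment 1. Their sums there were 469 to 778 CPM in axenic, 351 to 543 CPM in re-colonized and 303 to 583 CPM in conventional heads. In experiment 2, 1 of 4 was lower against conventional heads and 0 were called against re-colonized heads. Sums of 300 to 497, 28.2 to 557 and 97.4 to 598 CPM overlapped there. The part of these cells in the matrix result was not tested. In experiment 1 the library names carry the mark L7 in all conventional libraries and L6 in all others, so the mark and the group cannot be told apart in comparisons with conventional heads, while axenic and re-colonized libraries share it.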

How the data were processed

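Estimated counts per gene, which the authors deposited as 1 table per experiment with 36 libraries in all, were the input. Per the submitters' processing notes, bcl2fastq, Partek 8.0.19.0428, STAR 2.5.3a and the build GRCz11 were used. For the annotation and the strand setting of counting, no source used here gives a value. Of the deposited estimated counts, 9.44% in experiment 1 and 17.3% in experiment 2 were not whole (by more than 0.01) and all were rounded. Groups came from the treatment label of each sample.

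Each experiment was fitted with edgeR 4.0.16 in R 4.3.3 (limma 3.58.1): filterByExpr, TMM scaling, a mean per group and the quasi-likelihood test, two-sided, with Benjamini-Hochberg adjustment over 19727 genes in experiment 1 and 20169 in experiment 2, called at 0.05. Differences between experiments were tested in 1 fit over 21208 genes. DESeq2 1.42.0, other scaling and filters, 2-group fits, a replicate block and leaving out libraries were alternatives. The test was checked on simulated counts. No replicates were near-identical (lowest chi-square per degree of freedom 5.54 and 29.4).

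The members and lists were chosen with earlier results of these data known. Library values are given for 10 members called against both groups of experiment 1, ranked by the smaller of their fold changes, up to 8 called in experiment 2 by adjusted p, pairs of copies of which 1 was called against re-colonized heads of experiment 1, and members called in an interaction. Values of dcn and sparc were added after they were seen, as was the copy ratio test.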

Additional observations from a re-analysis of the deposited data

Results flagged for a closer look

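The cut-off for a library far from the others of its group gives about 1 in 20 for independent, normally distributed values. Here the values were untransformed CPM and the groups share the same 36 libraries, so that rate is no background. Among 144 groups of member values examined, 14 held such a library. In axenic heads these were mmp2 in axenic A of experiment 1 (59.9 CPM, the next 41.6), serpinh1b in axenic C of experiment 1 (4.47, the next 2.45), and fmoda (17.9, the next 9.40) and bgnb (9.18, the next 5.44) in axenic 7 of experiment 2. In re-colonized heads they were lum in library D (1.52 CPM, below the next at 2.17), fbn2b in F (20.6, the next 13.9) and plod1a in B (4.94, the next 2.76) of experiment 1, and cthrc1b in 6 (1.90, the next 0.559) and serpinh1b in 1 (3.34, the next 1.54) of experiment 2. In conventional heads they were bgnb in H of experiment 1 (6.06 CPM, the next 4.53), and in experiment 2 cthrc1b in 7 (1.15, the next 0.431), fmodb in 7 (1.97, the next 0.924), vcana in 2 (0.277, the next 0.052) and serpinh1b in 1 (3.23, the next 1.31).

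The axenic minus conventional log2 change was larger in experiment 2 than in experiment 1 by 1.32 for lama2 and by 0.99 for adamts15b, in the interaction test.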

How the results depend on the processing

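No called member value changed sign under any alternative run. Of the 40 called values of experiment 1, 37 stayed called under every alternative and without any 1 library, as did 16 of the 32 of experiment 2 and 0 of the 2 interactions. Leaving out 1 library gave 19 to 21 members called against conventional and 18 to 21 against re-colonized heads of experiment 1, 10 to 19 and 6 to 15 in experiment 2, and 0 to 2 for the axenic minus conventional interaction; the lowest counts of experiment 2 came without axenic 7. Without re-colonized 1 and 7, 8 members were called against re-colonized heads of experiment 2, and 285 genes in all were called higher, against 656. The interaction count was 1 with DESeq2 size factors and 1 without structural RNAs; the cause was not tested.

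With the replicate block, 21 and 19 members were called higher in experiment 1, where 1831 and 1173 of all genes were (1753 and 1710 without the block), against conventional and re-colonized heads. In experiment 2 they were 23 and 19, where 1060 and 866 of all genes were (804 and 656 without it), and 0 between the colonized groups. The block ended the calls of bgnb in experiment 1 and serpinh1a in experiment 2, both against re-colonized heads. Same-numbered libraries correlated at -0.0369 to 0.231 over 13 pairs of experiment 1 (median 0.0115, 4 over 0.1) and at -0.191 to 0.401 over 15 of experiment 2 (median 0.131, 10 over 0.1; other pairs -0.024). Since not every pair was over 0.1, the numbers are not taken as pairs in the main fits. That rule does not show that same-numbered libraries are unrelated, least of all in experiment 2.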
